A study of Mus musculus with 4 samples.

Results

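The cells described here are the Eomes-positive, Neurod6-low barcodes of 2 droplet libraries of embryonic mouse forebrain progenitors, proposed as intermediate progenitors of the cortex. A barcode stands for a droplet taken as a cell, and a UMI (unique molecular identifier) stands for a captured RNA molecule. Members were chosen by their measured UMIs as the barcodes with at least 1000 detected genes, at most 10% mitochondrial UMIs and at most 30000 UMIs that held 2 or more UMIs of Eomes and at most 1 UMI of Neurod6. They numbered 90 of the 1633 barcodes within the filters of both libraries, and of 6341 barcodes deposited in 4 libraries. There were 42 members among 541 barcodes at E15.5, a share of 7.76% (exact 95% interval 5.65% to 10.3%). At E18.5 there were 48 among 1092, a share of 4.40% (3.26% to 5.79%). The order of these shares rested on the limit of 30000 UMIs, since without it the members were 44 of 876 (5.02%) and 58 of 1148 (5.05%). The other 499 and 1044 barcodes served as the comparison.

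The study profiled neural progenitors at ages of neuron and glia production, with cells of the cerebral cortex and of the ganglionic eminence (GE) in separate libraries at E15.5 and at E18.5. Embryos carrying both GFP and RFP came from crosses of heterozygous Nestin-GFP with homozygous DCX-mRFP mice, so all groups shared both reporters. After dissociation, green cells were taken by FACS as neural progenitors and processed with 10x Genomics 3′ v2 chemistry, with about 10000 cells loaded. The Nestin-driven GFP decided which cells could enter a library. Each age and region had 1 library, and the sources used here do not say how many embryos each held. Age, library and embryos therefore cannot be told apart, no test between ages was possible, and the intervals given cover counting error only.

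The region labels and the RNA of these libraries went in opposite directions. Both libraries used here are labelled GE, whereas their deposited names call them cortex. Emx1, a transcription factor of the dorsal forebrain, was measured at 264 CPM (counts per 1000000 UMIs) in the library labelled GE E15.5 and at 33.8 CPM in the library labelled GE E18.5. The libraries labelled cortex held 0.594 and 1.22 CPM of it. Nkx2-1, a transcription factor of the medial ganglionic eminence, showed the reverse, with 1.03 and 1.88 CPM in the libraries labelled GE and 266 and 115 CPM in those labelled cortex. The same selection found 1 of 928 and 3 of 3083 barcodes in the libraries labelled cortex. Below, E15.5 and E18.5 mean the libraries labelled GE E15.5 and GE E18.5. They held 31173997 and 14528712 UMIs and shared no barcode sequence. The members' UMIs per barcode ranged from 11742 to 29596 around a median of 16915 at E15.5, and from 5033 to 29227 around 11512.5 at E18.5. The other barcodes had medians of 17341 and 9764.5 UMIs, close to that of the members at E15.5. At E18.5 the members were deeper, with an upper quartile of 19716.5 UMIs against 13400.25 in the others. The members' summed counts were 560485 and 554922 UMIs after mitochondrial, ribosomal protein and haemoglobin genes were set aside, and all CPM values are relative to such sums.

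In the developing cortex, radial glia line the ventricle, self-renew and give rise to intermediate progenitors, which divide in the subventricular zone to produce excitatory neurons. Intermediate progenitors switch on the T-box factor Eomes (also called Tbr2), and the proneural factor Neurog2 acts before and with it. Delta-type ligands on differentiating cells activate Notch receptors on their neighbours, where genes of the Hes family hold back differentiation. Neurod6 comes on as daughter cells become glutamatergic neurons, so a limit on it leaves out Eomes-positive barcodes that also hold Neurod6. Here these were the larger part: 339 of 381 barcodes with 2 or more Eomes UMIs at E15.5 and 64 of 112 at E18.5.

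Eomes itself, on chromosome 9 (GRCm38, 118478212 to 118486132, plus strand), was used for the choice and is described only. Members held between 2 and 33 Eomes UMIs with a median of 6 at E15.5, and between 2 and 28 with a median of 8.5 at E18.5. Of all barcodes with 2 or more Eomes UMIs, members made up 11.0% of 381 at E15.5 and 42.9% of 112 at E18.5. The others were therefore of different kinds at the 2 ages: 339 of 499 at E15.5 and 64 of 1044 at E18.5 had 2 or more UMIs of both Eomes and Neurod6. Vascular barcodes, which should lack Eomes, serve as a measure of free RNA: 0 of 13 and 0 of 16 held 2 or more, with exact upper bounds of 24.7% and 20.6% and median depths of 15652 and 7346 UMIs. Among E18.5 barcodes with Olig1 and Pdgfra UMIs, of the oligodendrocyte lineage, 10 of 293 did (3.41%, 1.65% to 6.19%). At E15.5 this set had only 9 barcodes, with a median of 0 and a highest value of 9 Eomes UMIs.

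**Figure D1:**
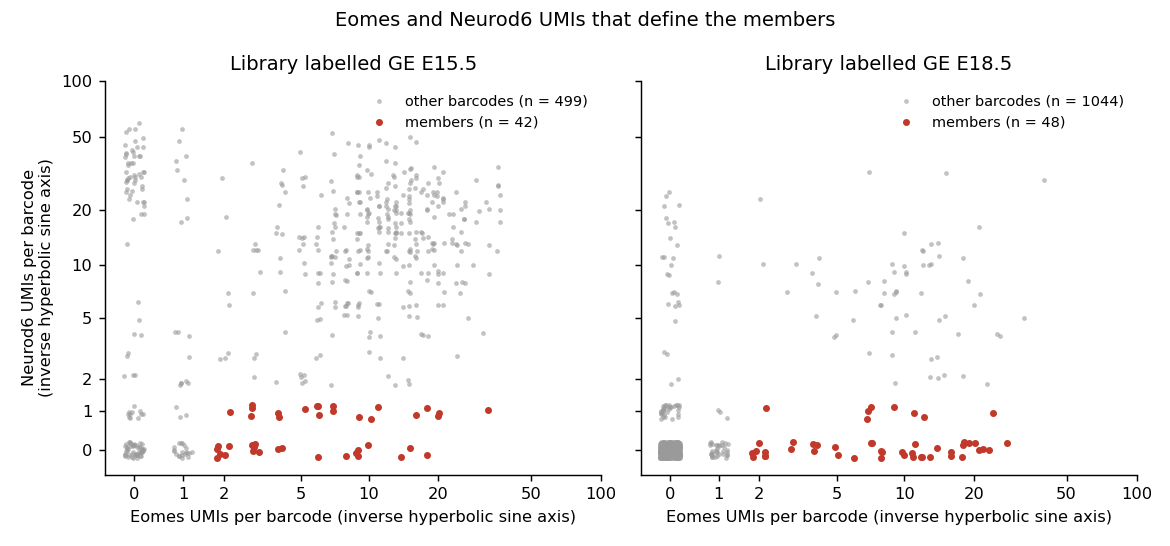
Eomes UMIs (horizontal) against Neurod6 UMIs (vertical) of each barcode at E15.5 and E18.5, on inverse hyperbolic sine axes, with the members in red and the other barcodes in grey. The 42 and 48 members lie along the floor of Neurod6, and at E15.5 most other barcodes continue from them upward into Neurod6.

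Values near the limits differed from those further inside. At E15.5, 7 members held exactly 2 Eomes UMIs and 23 barcodes with little Neurod6 lay just outside with 1. At E18.5 the corresponding numbers were 8 and 37. Neurog2 was measured at 215 CPM in the E15.5 barcodes with 1 Eomes UMI, at 679 CPM with 2 and at 1700 CPM with 3 or more. At E18.5 it followed the same order, with 61.9, 444 and 1900 CPM. Sstr2, a somatostatin receptor gene, had no UMI in members with exactly 2 Eomes UMIs at either age, and 90.9 and 121 CPM in those with 3 or more. On the Neurod6 side, 20 and 8 members held 1 Neurod6 UMI and 12 and 6 barcodes just outside held 2. Sstr2 stood at 93.9 CPM with 1 Neurod6 UMI and at 246 CPM with 2 at E15.5, and at 86.8 and 230 CPM at E18.5.

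To place the members, they were set between 2 other selections of each library. The first, called the radial glia side, held at most 1 UMI of Eomes and of Neurod6, 2 or more of Hes5 and 1 or more of Pax6 (34 and 254 barcodes). The second held 2 or more UMIs of both Eomes and Neurod6 (339 and 64 barcodes). A gene was called higher or lower when it differed at least 2-fold, its 95% counting interval excluded 1, and it reached 20 CPM on 1 side. Since the genes that chose these sets are part of the same programme, the values describe the sets and were not tested. Against the radial glia side, 236 genes (3.24% of 7281) were called higher in members and 168 (2.31%) lower at E15.5. At E18.5, 308 (3.85% of 7991) were higher and 482 (6.03%) lower. Called the same way at both ages were 76 genes higher (1.1% of 6937) and 51 lower (0.735%). Of the 20 genes listed for intermediate progenitors, 16 of 17 measured were called higher and none lower at E15.5, and 13 of 15 higher and none lower at E18.5. The medians were 2.47 and 2.08 on the log2 scale, beside 0.03 and 0.07 over all genes. Eomes and Neurod6 are not in this list.

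Neurog2, on chromosome 3 (127633135 to 127635631, plus strand), drives neuronal commitment of cortical progenitors. It was measured at 1520 CPM in the members and 197 CPM on the radial glia side at E15.5, 7.72-fold higher (6.21 to 9.69). At E18.5 the values were 1699 and 15.6 CPM, 109-fold higher (80.5 to 151). Insm1, a zinc finger factor needed for basal progenitor formation, was at 644 against 104 CPM and then 1092 against 92.9 CPM. These were 6.20-fold (4.58 to 8.56) and 11.8-fold (10.2 to 13.6) higher in members. Gadd45g, a stress and cell-cycle gene of differentiating progenitors, stood at 769 against 108 CPM and at 854 against 96.4 CPM. Neurog2 had at least 1 UMI in 40 of 42 and 43 of 48 members, with medians of 17.5 and 16.5 UMIs per barcode. Insm1 had one in 40 of 42 and 47 of 48. Both genes were thus spread over nearly all members and not carried by a few barcodes.

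Sstr2, on chromosome 11 (113619342 to 113626028, plus strand), behaved differently. It was at 74.9 CPM in the members, 8.66 on the radial glia side and 419 in the Neurod6-positive set at E15.5. At E18.5 it was at 105, 1.77 and 513 CPM. The Neurod6-positive set exceeded the members 5.59-fold (4.12 to 7.77) and 4.91-fold (3.70 to 6.60). That set also held more Eomes per barcode, with medians of 12 UMIs against 6 in members at E15.5 and 10 against 8.5 at E18.5. Only 12 of 42 and 18 of 48 members held an Sstr2 UMI, so this gene, put forward as a marker of the population, was seen in a minority of it. With every barcode thinned to 4000 UMIs to even out depth, a UMI of Sstr2 remained in 6 of 42 members (14.3%) and 223 of 339 Neurod6-positive barcodes (65.8%) at E15.5, and in 10 of 48 (20.8%) and 51 of 64 (79.7%) at E18.5. Mfap4, a microfibril-associated gene, had the same order: 8.66, 109 and 379 CPM at E15.5 and 27.7, 162 and 493 CPM at E18.5 in the radial glia side, the members and the Neurod6-positive set.

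Neuronal genes stood between the flanking sets. Of 15 measured, 7 were called higher and none lower in members than on the radial glia side at each age, with medians of 1.01 and 0.98. From the members to the Neurod6-positive set, 17 of 20 were higher at E15.5 and 14 of 20 at E18.5, with medians of 2.04 and 1.84. The background of that step was 393 genes higher (5.28% of 7438) and 262 lower (3.52%) at E15.5, and 481 (6.02% of 7988) and 424 (5.31%) at E18.5. At both ages 198 genes were higher (2.78% of 7130) and 110 lower (1.54%). Elavl2, an RNA-binding protein of young neurons, was measured at 67.1, 260 and 766 CPM across the sets at E15.5 and at 40.1, 418 and 858 CPM at E18.5. Igfbpl1, a secreted binding-protein-like gene of newborn neurons, went through 60.6, 542 and 2241 CPM and through 31.6, 696 and 3176 CPM. Tubb3, the neuronal beta-tubulin, began later: it was at 236 and 253 CPM on the radial glia side and in members at E15.5, and at 1275 CPM in the Neurod6-positive set, 5.03-fold above members (4.26 to 5.98). At E18.5 Tubb3 was at 134, 236 and 1023 CPM, and members exceeded the radial glia side 1.76-fold (1.43 to 2.15), under the limit for a call. Neurod1, a factor of the step after Eomes, was at 14.3 CPM in members and 125 CPM in the Neurod6-positive set at E15.5, and at 9.01 and 93.7 CPM at E18.5. After thinning, 1 of 42 and 1 of 48 members held a UMI of it. The members thus carried high Neurog2 and Insm1 with little Neurod1, and with Tubb3 nearer to the radial glia side than to the Neurod6-positive set.

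Radial glia genes were near the level of the radial glia side in E15.5 members, and a part of them was lower at E18.5. Of 22 measured, 1 was called lower than on the radial glia side at E15.5 and 8 at E18.5, with none higher. From the members to the Neurod6-positive set 16 and 17 of the 22 were lower, with medians of −1.18 and −1.26 beside −0.01 and −0.02 over all genes. Vim, an intermediate filament gene of radial glia, was at 3267 CPM in members and 3139 CPM on the radial glia side at E15.5, and at 2597 and 2509 CPM at E18.5. Pax6, whose UMIs helped to choose the radial glia side, was at 466 and 501 CPM in members and at 290 and 266 CPM in the Neurod6-positive set. Fabp7, the fatty acid binding protein of radial glia, was at 8500, 5026 and 1961 CPM across the sets at E15.5. At E18.5 it was at 21025, 6916 and 2976 CPM, so members lay between the flanking sets at both ages.

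**Figure D2:**
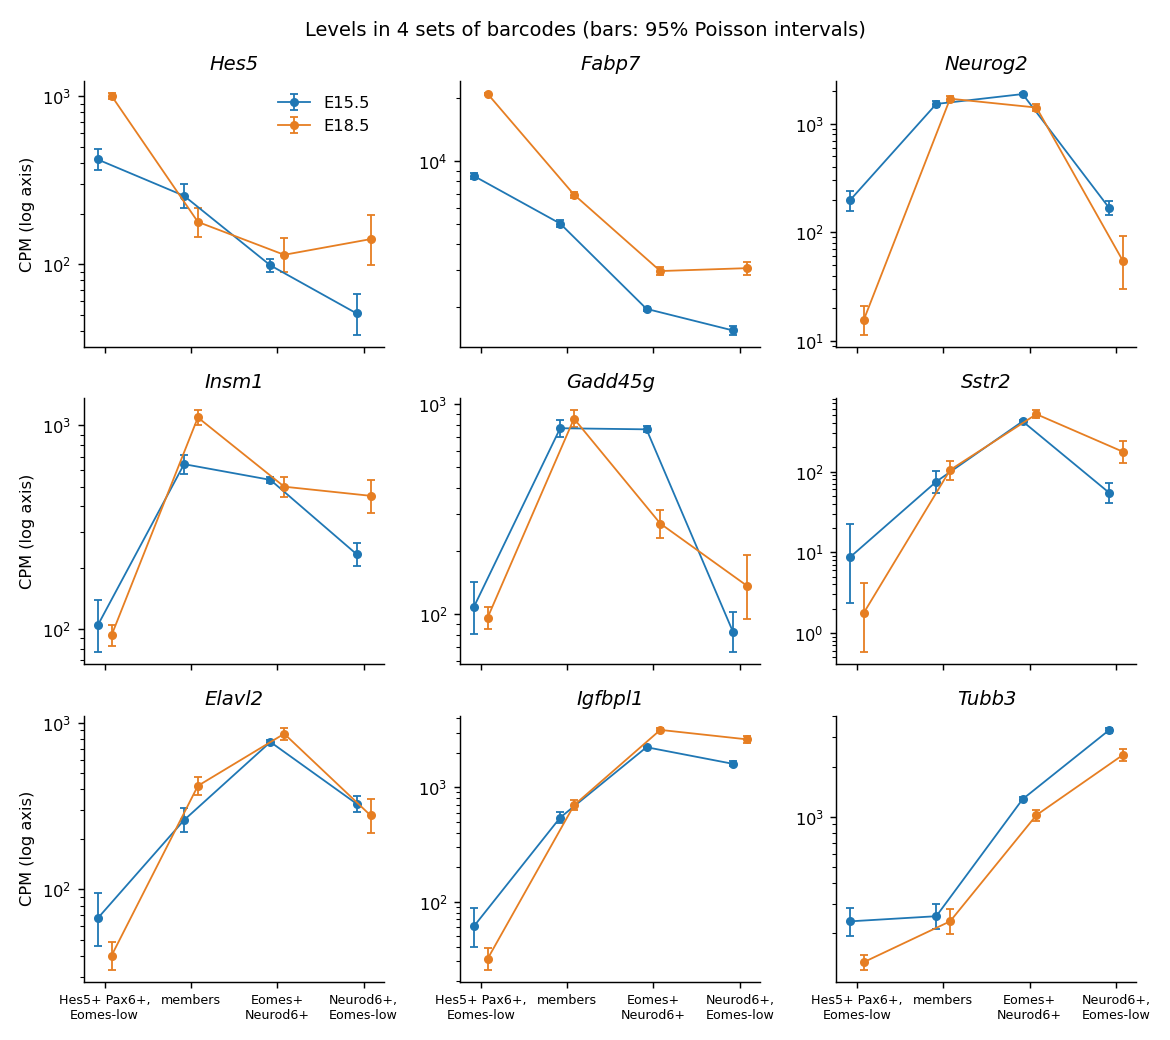
Level in CPM (log axis) of 9 genes in 4 sets of barcodes at each age: radial glia side, members, barcodes with both Eomes and Neurod6, and barcodes with Neurod6 and at most 1 Eomes UMI. Bars are exact 95% Poisson intervals. Neurog2, Insm1 and Gadd45g are already high in members, whereas Sstr2, Elavl2, Igfbpl1 and Tubb3 are highest to the right of them.

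Notch pathway genes were measured by role. Dll1, a Delta ligand, was at 94.6 CPM in members against 26.0 on the radial glia side at E15.5, 3.64-fold higher (1.92 to 7.48). At E18.5 it was at 123 against 45.4 CPM, 2.70-fold higher (1.98 to 3.65), and the Neurod6-positive set lay 4.99-fold below members (2.86 to 9.21) with 24.6 CPM. Dll3, a Delta-like protein that does not activate receptors on other cells, rose in members from 41.0 CPM at E15.5 to 106 at E18.5, 2.59-fold (1.58 to 4.40). In the narrower range of 12000 to 20000 UMIs per barcode this difference was 0.97 on the log2 scale and was no longer called. Jag1, a Jagged ligand on chromosome 2 (137081456 to 137116644), rose from 3.57 CPM and 2 UMIs to 50.5 CPM, a ratio of 14.1 (3.57 to 122), and was found in 2 and then 16 barcodes. At E15.5 Jag1 was 9.10-fold lower in members than on the radial glia side (2.12 to 82.0), and at E18.5 it was 2.22-fold higher. The position of Jag1 relative to the radial glia side was thus reversed between the libraries.

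Among receptors, Notch1 was nearly even, at 182 CPM in members and 175 on the radial glia side at E15.5 and 220 and 210 CPM at E18.5. Notch2 was 2.78-fold and 2.12-fold lower in members, at 55.3 and 79.3 CPM. Over all 15 listed ligands, receptors and modulators, 3 of 11 were called higher and 2 lower in members than on the radial glia side at E15.5, and 3 of 11 in each direction at E18.5. The shares of all genes were 3.24% higher and 2.31% lower at E15.5, and 3.85% and 6.03% at E18.5. Lfng, which adds sugars to Notch receptors, was at 87.4 CPM in members and 141 on the radial glia side, and then at 73.9 and 258 CPM.

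Of the 7 listed Notch target genes, 5 were measured. None was called against the radial glia side at E15.5 and 3 were lower at E18.5, with medians of −0.72 and −1.14. Hes5 is among the 5, and 2 or more of its UMIs were required on the radial glia side. Its part in these counts and medians was therefore fixed by the selection. Hes5, a transcriptional repressor and direct Notch target, is shown with its promoter because its level relative to the other barcodes changed direction between the libraries. It was at 255 CPM in members and 108 in the others at E15.5, and at 178 and 464 CPM at E18.5. It had a UMI in 33 of 42 and 22 of 48 members. The E15.5 difference of Hes5, 1.25 on the log2 scale, was 0.78 with Neurod6 at 0 and 0.59 with counts thinned to 8000 UMIs before selection, neither called, and the E18.5 difference was −0.82 without the limit of 30000 UMIs. Id4, an inhibitor of bHLH factors, fell in members from 566 to 178 CPM, 3.17-fold (2.52 to 4.01), and Hey1, a further Hes-related repressor, fell from 51.7 to 18 CPM, 2.87-fold. Hes1 was at 139 and 79.3 CPM, below the limit for a call. The sequence below gives the 250 bases before the annotated start of Hes5 (chr4:154960673-154960922, plus strand, GRCm38.p6, RefSeq), with matches to GTGGGAA on either strand in capitals, the core of the site bound by the Notch effector RBPJ.
Hes5: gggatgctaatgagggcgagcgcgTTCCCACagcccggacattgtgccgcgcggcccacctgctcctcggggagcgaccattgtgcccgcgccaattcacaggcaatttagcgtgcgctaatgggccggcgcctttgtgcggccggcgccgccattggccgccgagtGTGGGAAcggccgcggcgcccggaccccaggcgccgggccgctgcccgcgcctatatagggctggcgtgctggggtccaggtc
GTGGGAA was found in 5.42% of 32851 RefSeq promoters of that length and in 2 of 4 listed Notch targets with a promoter in the table. A match is a description and not a measured site.

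Set against all other barcodes of their library, 184 genes (2.47% of 7464) were called higher in members and 412 (5.52%) lower at E15.5. At E18.5 there were 187 (2.34% of 7990) and 401 (5.02%). Called the same way at both ages were 16 genes higher (0.226% of 7093) and 90 lower (1.27%), while 12 were higher and then lower and 12 lower and then higher (0.169% each). The selection fixed this contrast, and its composition differed by age as given above, so the values describe the members and nothing is read from the counts. With the others limited to barcodes of at most 1 Eomes UMI, an alternative added after seeing the data, 64 genes were higher and 144 lower at both ages.

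Tfap2c, a transcription factor of Eomes-positive progenitors on chromosome 2 (172549593 to 172558622), was higher in members at both ages. It was at 212 against 95.6 CPM at E15.5, 2.22-fold (1.81 to 2.70), and at 115 against 25.7 CPM at E18.5, 4.49-fold (3.35 to 5.95). Across the sets it was at 152, 212 and 104 CPM and then at 38.3, 115 and 70.6 CPM, highest in members at both ages. At E15.5 its log2 difference was 0.91 with Eomes at 1 UMI or more and 0.88 with Neurod6 up to 5 UMIs, both short of a call. Kctd14, on chromosome 7 (97451323 to 97459557), was at 25.0 against 7.53 CPM and at 57.7 against 19.1 CPM, 3.32-fold (1.70 to 6.06) and 3.01-fold (2.00 to 4.41). Within 12000 to 20000 UMIs the log2 difference of Kctd14 at E18.5 was 0.29 and it was no longer called. Cacng5, an AMPA receptor auxiliary subunit gene, was at 21.4 against 9.34 CPM at E15.5, 2.29-fold. At E18.5 it was at 72.1 against 7.52 CPM, 9.58-fold (6.31 to 14.4), with a UMI in 28 of 48 members. With Neurod6 held at 0 its E15.5 difference turned to −0.61. Dct, the dopachrome tautomerase of melanin synthesis, was 2.44-fold and 3.02-fold higher and was seen in 8 and 10 members. The zinc finger factor Zic5 was at 30.3 against 11.0 CPM and at 41.4 against 20.1 CPM. Egln3, Pter and Lrrc8b, also given by the naming rule, lay between 28.5 and 95.5 CPM in members.

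Genes lower at both ages were in part those of vessel cells among the others. Igfbp7 had no UMI in members at E15.5 against 122 CPM, at least 22.8-fold lower, and stood at 1.80 against 41.1 CPM at E18.5. Rgs5, a pericyte gene, had no UMI against 65.2 CPM at E15.5, at least 12.2-fold lower, and stood at 5.41 against 74.1 CPM at E18.5. With vascular, microglial and erythroid barcodes left out, the E15.5 differences of Col4a1, Dlk1 and Vtn turned positive, to 1.05, 1.13 and 1.05. These are log2 values without counts or intervals, so no excess in members is read from them. Chga, a granin of secretory vesicles, was at 8.92 against 75.5 CPM and at 3.60 against 29.3 CPM, 8.47-fold (3.61 to 26.2) and 8.14-fold lower.

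The intermediate progenitor list was mixed at E15.5, with more genes lower than higher in members and a median near that of all genes. It was mostly higher in members at E18.5. At E15.5, 1 of 19 was called higher and 5 lower, beside 2.47% and 5.52% of all genes, with a median of −0.07. At E18.5, 7 of 16 were higher and 1 lower, beside 2.34% and 5.02% of all genes, with a median of 0.93. The all-gene median was 0.03 at both ages. Neurog2 was at 1520 against 1382 CPM at E15.5 and 1699 against 121 CPM at E18.5, 14.0-fold higher (12.9 to 15.3). Sstr2 was 4.10-fold lower in members at E15.5 (3.03 to 5.71), at 74.9 against 307 CPM. It was 2.38-fold higher at E18.5 (1.77 to 3.14), at 105 against 43.9 CPM. The Sstr2 difference was −0.77 at E15.5 with counts thinned to 8000 UMIs and 0.86 at E18.5 without the limit of 30000 UMIs, neither called. Against E15.5 barcodes with at most 1 Eomes UMI, Sstr2 was higher in members, by 1.27 on the log2 scale. Mfap4 and Elavl2 changed direction in the same way, with log2 differences of 2.05 and 0.39 against those barcodes. The members' own levels of these genes moved less between ages than those of the others. Neurog2 differed by 0.16 in members and by −3.51 in others, and Sstr2 by 0.48 and −2.81.

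**Figure D3:**
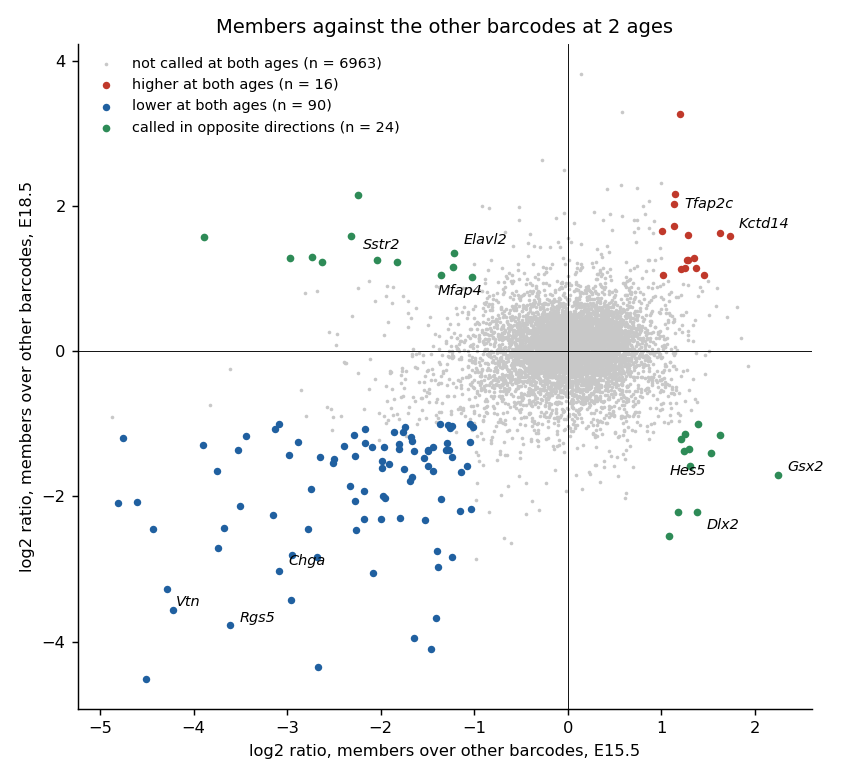
Log2 ratio of members over other barcodes at E15.5 (horizontal) and E18.5 (vertical) for each gene measured at both ages, in colour where called at both ages. The 16 genes called higher, 90 called lower and 24 called in opposite directions are a small part of the cloud, and Sstr2, Mfap4, Elavl2 and Hes5 lie in the quadrants of opposite sign.

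Between ages, 587 genes (7.64% of 7688) were called higher in members at E18.5 and 196 (2.55%) lower. In the other barcodes 684 (8.61% of 7940) were higher and 236 (2.97%) lower. The members' split depended on scaling, with 441 higher and 290 lower under TMM normalisation, and the median over all genes moved from 0.08 to −0.05. The contrast between ages was not part of the selection, but with 1 library per age the counts describe these libraries.

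Of 26 listed late or gliogenic genes, 14 of 23 measured were called higher in members and none lower, with a median of 1.33 beside 0.08 over all genes. In the others 19 of 25 were higher, with a median of 2.63. Apoe, a lipid carrier of glia, rose from 62.4 to 591 CPM, 9.47-fold (6.67 to 13.8). Tnc, an extracellular matrix gene of late radial glia, rose from 32.1 to 196 CPM, 6.12-fold (3.69 to 10.7). Egfr, a growth factor receptor of late progenitors, rose from 3.57 to 73.9 CPM, a ratio of 20.7 (5.38 to 177), in 2 and then 22 barcodes. Slc1a2, a glutamate transporter, had 1 UMI at E15.5 and 101 CPM at E18.5, a ratio of 56.6 (9.74 to 2273), in 1 and then 25 barcodes. Hopx, a gene of outer radial glia, rose from 26.8 to 72.1 CPM. Zbtb20, a late temporal factor, rose from 662 to 1384 CPM, 2.09-fold (1.84 to 2.37). These rises were spread over many barcodes, whereas for Id3 1 barcode supplied 51.7% of the E18.5 UMIs and for Sparcl1 44.0%.

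Of the 11 listed oligodendrocyte lineage genes, 4 were measured and all 4 rose. Olig1, on chromosome 16 (91269772 to 91271933), went from 1 UMI in 1 member to 140 UMIs in 18 members, or 1.78 to 252 CPM, a ratio of 141 (25.0 to 5625). Olig2 rose from 10.7 to 144 CPM, 13.5-fold. In the others Olig1 rose from 38.5 to 1383 CPM, so members stayed below them. Of the defining markers, Pdgfra and Sox10 were at 0 in E15.5 members and at 10.8 and 9.01 CPM (6 and 5 UMIs) at E18.5. The list summed to 39.3 and 595 CPM in members and to 104 and 2534 CPM in others. Without members holding 3 or more UMIs over Olig1, Olig2 and Pdgfra (0 of 42 and 8 of 48), added after seeing the data, 594 genes were higher and 260 lower. The part of free RNA or of mixed droplets in the Olig1 value was not tested.

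Early temporal genes went down in smaller number. Of 11 measured, 4 were called lower and none higher in members, with a median of −0.65. These were Lmo1, Hmga2, Nr2f2 and Igf2bp2. Hmga2, a chromatin protein of early progenitors, fell from 23.2 to 5.41 CPM, 4.29-fold (1.18 to 23.5), but differed by 0.13 within 12000 to 20000 UMIs and lost its call under several other settings. Lmo1 fell 5.17-fold (3.10 to 9.10), with 28.7% of its E15.5 UMIs in 1 barcode. Igf2bp2, an RNA-binding protein gene, fell from 55.3 to 18 CPM, 3.07-fold (1.47 to 7.02), and from 22 to 8 barcodes. Nr2f2, a nuclear receptor gene, went from 19 UMIs in 7 members to 5 UMIs in 3. Outside this list, examples of genes called lower were Emx1, a dorsal patterning gene, and Nog, a BMP antagonist. Emx1 fell from 162 to 52.3 CPM, 3.11-fold (2.03 to 4.90), and from 33 of 42 to 22 of 48 barcodes. Nog fell from 32.1 CPM to 3.60 CPM and 2 UMIs, and its difference was −0.76 and not called within 12000 to 20000 UMIs.

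Of the intermediate progenitor list, 1 of 17 was called higher in members and 2 lower, with a median of 0.15. Dll3 was the higher gene, and Neurog1 and Rprm the lower. Neurog1, a proneural factor on chromosome 13 (56250478 to 56252163), fell from 107 to 9.01 CPM, 11.9-fold (4.82 to 37.9), and from 19 of 42 to 4 of 48 barcodes. In the others Neurog1 went from 66.5 to 0.221 CPM. Over the list, 2 of 19 genes were higher and 11 lower in the others, with a median of −1.55. Insm1 was at 644 and 1092 CPM in members, 1.70-fold higher (1.49 to 1.94) and under the limit for a call. Sox2, a progenitor factor, rose 2.14-fold (1.79 to 2.58) from 318 to 681 CPM, and was at 0.98 on the log2 scale under TMM. Fezf2, a factor of deep-layer neurons, was nearly level in members at 148 and 126 CPM while the others had 179 and 20.4 CPM. Of the upper-layer list 2 of 7 rose, Rorb from 12.5 to 59.5 CPM and Pou3f1 from 41.0 to 115 CPM. Thrsp, a lipogenic gene, rose from 3.57 to 114 CPM in members and from 4.46 to 23.6 CPM in others. Lingo1, a leucine-rich repeat membrane protein gene, had 1 UMI at E15.5 and 41.4 CPM at E18.5, a ratio of 23.2, beside 1.45-fold in the others.

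**Figure D4:**
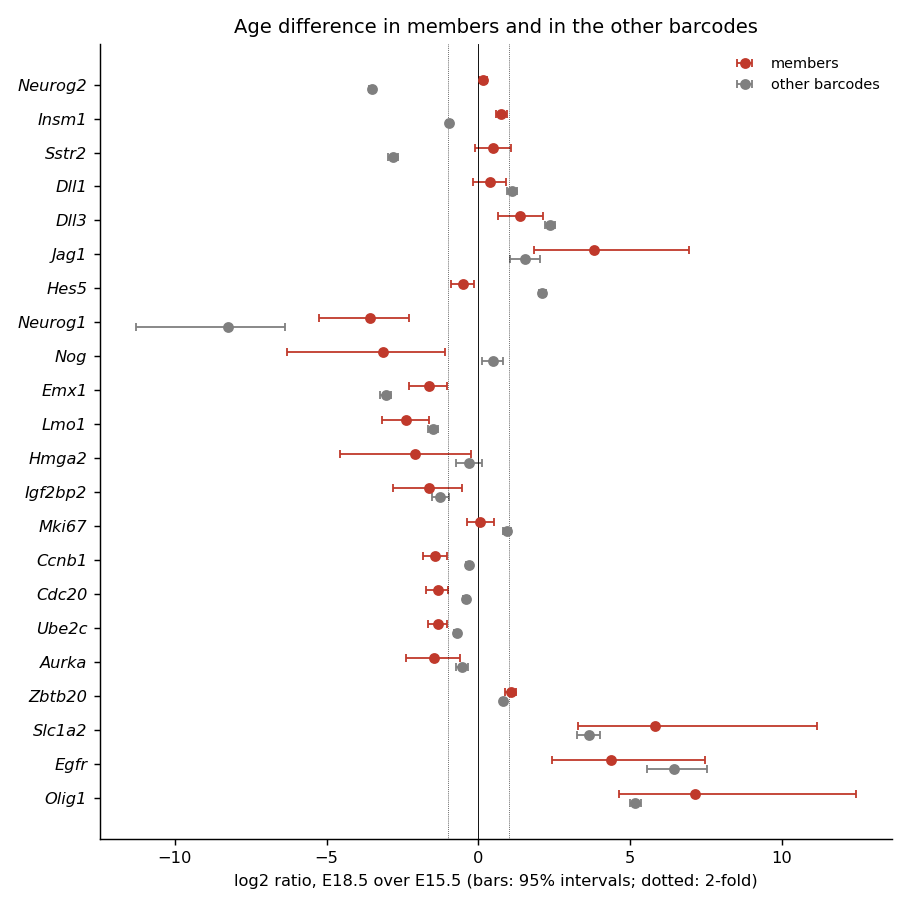
Log2 ratio of E18.5 over E15.5 for 22 genes in members and in other barcodes, with 95% counting intervals and dotted lines at 2-fold. Olig1, Slc1a2 and Egfr lie far to the higher side in both. Neurog2 and Sstr2 lie within the 2-fold lines in members only, and Insm1 in members lies on the higher side, within the 2-fold line. The G2/M genes Ccnb1, Cdc20, Ube2c and Aurka lie on the lower side in members, whereas Mki67 lies near 0.

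Division genes were lower in members at E18.5. Of 24 genes of G2 and M phase, 14 were called lower and none higher, with a median of −1.07, while none was called in the others (median −0.20). Their summed level was 8000 CPM in members at E15.5 and 4195 at E18.5, and 5030 and 4588 CPM in the others. Of 23 S-phase genes 5 were lower and none higher, with a median of −0.70 (0.27 in the others). Ccnb1, the mitotic cyclin B1, fell from 350 to 132 CPM, 2.66-fold (2.02 to 3.53), and from 30 of 42 to 15 of 48 barcodes. Cdc20, an activator of the anaphase-promoting complex, fell from 407 to 160 CPM, 2.54-fold (1.98 to 3.28). Ube2c, its ubiquitin-conjugating enzyme, fell from 580 to 229 CPM, 2.53-fold (2.06 to 3.14), with 25.2% and 33.9% of its UMIs in the top barcode. Aurka, a spindle kinase, fell from 78.5 to 28.8 CPM, 2.72-fold (1.51 to 5.17), with 56.2% of its E18.5 UMIs in 1 barcode. Not all moved: Mki67, a general mark of cycling cells, was at 153 and 160 CPM and Top2a at 321 and 278 CPM.

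These falls depended on how depth was matched. Within 12000 to 20000 UMIs, Cdc20 differed by −0.86 and Ube2c by −0.04. With counts thinned to 8000 UMIs before selection, Ccnb1, Cdc20 and Ube2c differed by −1.0, −0.60 and −0.34, none called. With the members as selected and their counts then thinned to 4000 UMIs, the same genes differed by −2.04, −1.98 and −1.94. Library depth per barcode moves with age here, and its part in the difference was not tested.

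With each barcode thinned to 4000 UMIs, members held a median of 16.5 G2/M UMIs at E15.5 and 4.5 at E18.5. The radial glia side went from 38.5 to 6, and the Neurod6-positive set from 5 to 2. Taking 3 or more such UMIs as a dividing range, which is a range and not a type, 39 of 42 members (92.9%, 80.5% to 98.5%) lay in it at E15.5 and 31 of 48 (64.6%, 49.5% to 77.8%) at E18.5. Unthinned, these were 42 of 42 and 44 of 48. On the radial glia side, the shares were 94.1% of 34 and 65.7% of 254, and in the Neurod6-positive set 68.4% of 339 and 32.8% of 64. By this share the members lay close to the radial glia side, although their median at E15.5 was below it, and above the Neurod6-positive set. Unthinned, the Neurod6-positive set had 99.1% and 81.3% in the range. Just below the limit, with 2 UMIs, were 0 of 42 and 6 of 48 members.

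**Figure D5:**
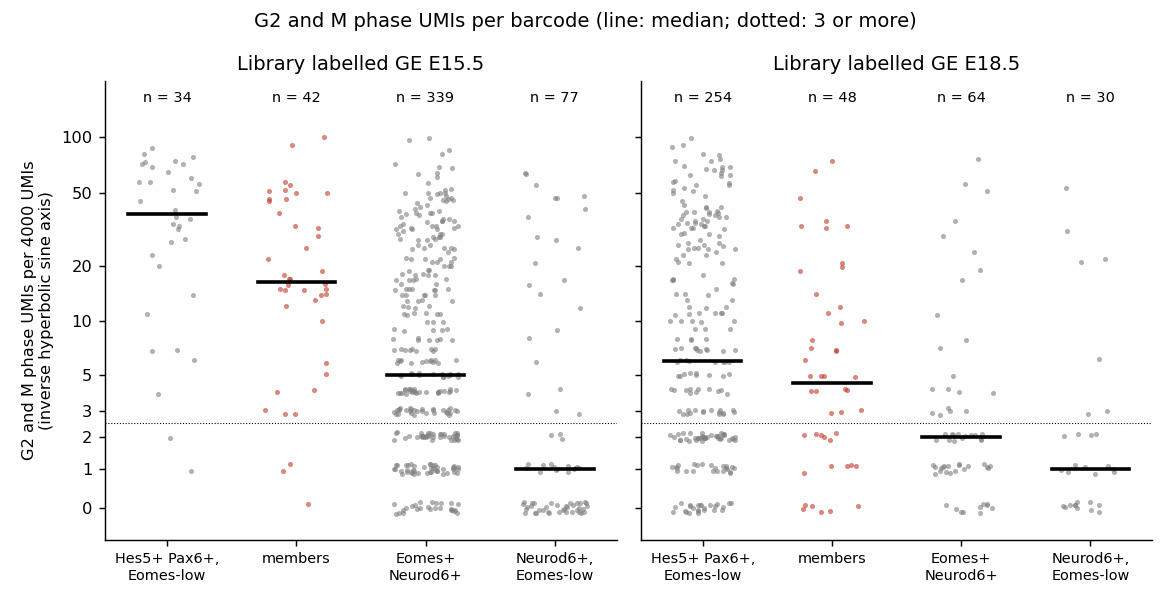
G2/M UMIs per barcode after thinning to 4000 UMIs, for the radial glia side, members, Eomes and Neurod6 barcodes and Neurod6 barcodes with little Eomes at each age, with lines at the medians and a dotted line at 3 UMIs. The members' median falls from 16.5 to 4.5 and stays above that of both Neurod6-positive sets at each age.

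Promoters of 3 of the G2/M genes are shown because 18 of 21 listed genes with a promoter in the RefSeq table (85.7%) held CCAAT, the site of the factor NF-Y, beside 33.8% of all 32851 promoters. The share was 83.3% of the 12 genes called lower and 59.1% of 22 promoters of 20 S-phase genes. TTTGAA, the form of the cell-cycle homology element searched, was in 8 of 21 (38.1%) against 16.0%, but in 2 of the 12 genes called lower (16.7%). They were among 7 motifs searched on both strands after the values were seen. The others were the E-box CANNTG, its forms CAGATG and, as a further form, CAGCTG, besides GTGGGAA and its shorter core TGGGAA, so that some matches overlap. Capitals mark CCAAT on either strand (ATTGG on the reverse) and TTTGAA. The stretches are Aurka at chr2:172370571-172370820 (minus strand), Cdc20 at chr4:118437353-118437593 (minus) and Ube2c at chr2:164769679-164769897 (plus), all GRCm38.p6 and ending at or before the annotated start.
Aurka: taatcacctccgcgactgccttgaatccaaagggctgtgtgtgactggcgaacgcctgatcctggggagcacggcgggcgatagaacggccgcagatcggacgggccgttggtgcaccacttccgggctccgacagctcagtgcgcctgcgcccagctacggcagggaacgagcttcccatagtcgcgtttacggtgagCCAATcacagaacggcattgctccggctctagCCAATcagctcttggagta
Cdc20: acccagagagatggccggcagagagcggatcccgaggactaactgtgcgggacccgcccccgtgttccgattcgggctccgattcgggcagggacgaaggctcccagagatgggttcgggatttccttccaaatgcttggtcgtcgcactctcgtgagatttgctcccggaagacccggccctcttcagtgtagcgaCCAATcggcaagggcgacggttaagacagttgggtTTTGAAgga
Ube2c: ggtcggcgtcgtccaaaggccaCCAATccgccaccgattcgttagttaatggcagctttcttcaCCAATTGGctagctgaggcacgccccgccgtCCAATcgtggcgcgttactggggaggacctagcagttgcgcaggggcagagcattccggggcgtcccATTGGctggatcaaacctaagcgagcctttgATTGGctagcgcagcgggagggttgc
As printed, Aurka holds 2 CCAAT matches, Cdc20 holds 1 with 1 TTTGAA, and Ube2c holds 6, of which a pair overlap. The shares above were counted on windows of 250 bases, whereas the Cdc20 and Ube2c stretches were cut to 241 and 219 bases. In the full windows Cdc20 holds 2 CCAAT matches and Ube2c holds 1 TTTGAA.

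Members were not uniform. At E18.5 the 31 members in the dividing range and the 17 outside it differed in Cdkn1c, a cell-cycle inhibitor of the Cip/Kip family, at 5.18 and 124 CPM. Insm1 was at 860 CPM in the first and 1624 in the second, and Neurog2 at 1422 and 2335 CPM. Neurod2, a neuronal bHLH factor, was at 25.9 and 101 CPM. Tubb3 ran the other way, at 287 CPM in the dividing range and 118 outside it, as did Dcx at 95.8 and 23.7 CPM. At E15.5 only 3 members lay outside the range, so no such values are given. These are differences between barcodes of 1 library, with no replicate.

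The members without a Neurog2 UMI after thinning to 4000 UMIs numbered 8 of 42 and 7 of 48. At E15.5 their Eomes level was 180 CPM against 681 in the rest, Insm1 171 against 761, and Btg2, an antiproliferative gene, 89.8 against 492. At E18.5 Insm1 was nearly even, at 954 CPM in them and 1114 in the rest (1.17-fold, 0.914 to 1.51), and Btg2 was at 232 against 660 CPM. They held 51.6 CPM of Igfbpl1 against 800, and 64.5 CPM of Elavl2 against 476. Fabp7 was 3.02-fold higher in them, at 16303 against 5392 CPM. Eomes was used for the selection, and members with 2 Eomes UMIs also had less Neurog2, so this split overlaps with the edge of the selection. Both sides of it come from 1 library.

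Markers of vessel and blood cells were low in members. The 8 endothelial genes summed to 7.14 and 7.21 CPM (others 224 and 49.1), with Cldn5 at 0. Mural genes summed to 33.9 and 50.5 CPM (others 160 and 230), microglial genes to 1.78 and 1.80, and erythroid genes to 12.5 and 18 CPM. Ventral and GABAergic genes were higher, at 583 and 726 CPM (others 331 and 1394), with Nkx2-1 at 0 at both ages, and the oligodendrocyte list stood at 595 CPM at E18.5 as given above. At E15.5, 4 of 8 were called higher and 2 lower in members, and at E18.5 none higher and 9 of 11 lower. The E15.5 values rested on few barcodes: 3 or more ventral UMIs were found in 5 of 42 and 7 of 48 members, and in 53 of 499 and 307 of 1044 others. With Eomes at 3 or more UMIs, the E15.5 difference of Dlx1 was −1.79 and that of Dlx2 −0.083, both below 0 in place of 1.18 and 1.39. Xist together with Y-linked UMIs, which a droplet with cells of both sexes would give, appeared in 15 of 42 members (35.7%, 21.6% to 52.0%) and 178 of 499 others (35.7%) at E15.5. At E18.5 it appeared in 13 of 48 members (27.1%, 15.3% to 41.8%) and 77 of 1044 others (7.38%, 5.86% to 9.13%). In the Neurod6-positive set it appeared in 157 of 339 barcodes (46.3%) at E15.5 and 11 of 64 (17.2%) at E18.5. The shares were not matched for depth, and the parts of depth, free RNA and mixed droplets were not tested. Without the barcodes that held both, 621 genes were higher and 282 lower in members at E18.5. The dividing range then held 26 of 27 and 22 of 35 members.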

How the data were processed

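The deposited files hold UMI counts per gene and barcode, made by the authors with Cell Ranger 1.3.1, Seurat and mm10, per the submitters' processing notes; the sources used here do not say how barcodes were called as cells or which annotation was used. Each file lists 27998 genes. Counts were summed over the members and the comparison barcodes and divided by totals without 13 mitochondrial, 86 ribosomal protein and 10 haemoglobin genes (CPM). Ratios carry exact conditional binomial 95% intervals, levels exact Poisson intervals and shares Clopper-Pearson intervals. With 1 library per group there are no p-values. Against 0 UMIs the bound uses 3 UMIs over the group. The 26 gene lists and the members were chosen with earlier results of these data known. Genes were named by a rule: the 10 called higher and 10 lower at both ages with the largest smaller difference, 10 and 10 by age, up to 5 per list, and the genes named in the selection. Doublets were scored against 2 simulated doublets per barcode, with 0.8% marked per 1000 barcodes; 6 of 876 and 11 of 1148 were marked, of them 0 and 1 members, and all were kept. Positions are from GENCODE M21 (GRCm38) and promoters from RefSeq (GRCm38.p6). The scripts were tested on simulated data. Software was Python 3.11.15, numpy 2.4.6, scipy 1.17.1, pandas 2.3.3, scikit-learn 1.9.0, matplotlib 3.10.9, and edgeR 4.0.16 in R 4.3.3 for TMM factors. Other thresholds, depths, scalings and exclusions were tried, and the closing section gives their effect. Results for some named genes are not reported here.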

Additional observations from a re-analysis of the deposited data

Results flagged for a closer look

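Genes named by the rule above that were called in opposite directions in members against other barcodes at E15.5 and E18.5 are given as log2 differences. Whether the ages differ was not tested, since each has 1 library and the others differ in kind. Sstr2 was at −2.04 and 1.25, Mfap4 at −1.35 and 1.05, and Elavl2, the RNA-binding protein of young neurons, at −1.21 and 1.36. Hes5, the Notch target, ran the other way, at 1.25 and −1.38. The BMP antagonist Nog was at 1.08 and −2.55. Gsx2, Dlx1 and Dlx2, factors of ventral progenitors, were at 2.25 and −1.70, at 1.18 and −2.21, and at 1.39 and −2.22. Gsx2 rested on 2 and 3 members, Dlx1 on 3 and 7, and Dlx2 on 6 and 7.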

How the results depend on the processing

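No paired analysis was possible because each group has 1 library. The settings below change 1 choice at a time; those for Neurod6 at most 5, others with at most 1 Eomes UMI, blood and vessel barcodes left out and members with Olig genes left out were added after seeing the data. Causes were not tested. The share of members at E15.5 (7.76%) became 12% with Eomes at 1 or more, 4.07% with Neurod6 at 0, 5.02% without the depth limit, 11.5% thinned to 8000 UMIs and 15.3% with Neurod6 at most 5. At E18.5 (4.40%) it became 7.78% with Eomes at 1 or more and 6.59% with Neurod6 at most 5. Genes higher with age (587) numbered 287 thinned to 4000 UMIs, 296 with a minimum of 50 CPM, 279 at 3-fold and 104 with under 3 G2/M UMIs, where 3 and 17 members remained. Genes lower with age (196) numbered 300 with Neurod6 at 0, 122 with 50 CPM and 61 at 3-fold. Genes higher at both ages (16) numbered 6 with Eomes at 1 or more, 9 without the depth limit, 7 and 10 thinned to 8000 and 4000 UMIs, 4 with 50 CPM, 2 at 3-fold, 31 with under 3 G2/M UMIs, 2 with Neurod6 at most 5 and 64 against others with at most 1 Eomes UMI. Genes lower at both ages (90) numbered, in the same order, 43, 19, 26 and 47, 30, 34, 30, 52 and 144, besides 18 within 12000 to 20000 UMIs and 141 with no CPM minimum. Of 216 gene and comparison pairs under 19 alternatives, 2956 of 3748 values stayed within counting error, 771 moved and 21 turned sign; 1565 of 1874 called values were called the same way. The 21, as log2 and without counts or intervals, were these. With Eomes at 1 or more, at E15.5, Col4a1 1.40, Igfbp7 1.3, Ostf1 1.02, Rgs5 1.19 and Vtn 0.40. With blood and vessel barcodes left out, at E15.5, Col4a1 1.05, Dlk1 1.13 and Vtn 1.05. Against others with at most 1 Eomes UMI, at E15.5, Elavl2 0.39, Mfap4 2.05 and Sstr2 1.27. With Eomes at 3 or more, at E15.5, Dlx1 −1.79 and Dlx2 −0.083. With Neurod6 at 0, Cacng5 −0.61 at E15.5. Dcx at E18.5 was 0.33 within 12000 to 20000 UMIs and 0.35 thinned to 8000. Egln3 at E15.5 was −0.88 thinned to 4000. Dlx5 at E18.5 was 1.26 with ventral barcodes left out. By age, Hmga2 was 0.13 within 12000 to 20000 UMIs, and Lmo1 0.63 and Sparcl1 −0.45 with under 3 G2/M UMIs. Genes under about 20 CPM are at the limit of depth, since 1 UMI is worth about 1.78 CPM in E15.5 members.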

Other observations

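Genes of the D-type cyclins and cell-cycle inhibitors were called in members between ages at about the share of all genes. Of 12 measured, 1 was called higher at E18.5 and none lower, beside 7.64% and 2.55% of all genes. Their median log2 difference was 0.15 beside 0.08 over all genes. The higher gene was Cdkn1b, the inhibitor p27, which rose from 66.0 to 191 CPM, 2.89-fold (1.97 to 4.33), and from 24 of 42 to 38 of 48 members. Ccnd2, the cyclin typical of cortical basal progenitors, was at 1363 and 1580 CPM and had a UMI in 42 of 42 and 47 of 48 members. Ccnd1 was at 191 and 130 CPM in members and at 69.0 and 162 CPM in the others.

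Of 10 measured Wnt pathway genes, 2 rose and 2 fell in members between ages, beside 7.64% and 2.55% of all genes. Axin2, a feedback target of Wnt signalling, rose from 7.14 to 34.2 CPM, 4.80-fold (1.59 to 19.4), and in the others from 6.41 to 44.5 CPM. Dkk3, a Dickkopf family member, had 3 UMIs at E15.5 and 20 at E18.5, a ratio of 6.73 (2.00 to 35.4). Sfrp2, a secreted Wnt modulator, fell from 157 to 75.7 CPM, 2.07-fold (1.42 to 3.07), with 33.0% of its E15.5 UMIs in 1 barcode. Tcf7l1, a repressor at Wnt targets, went from 19 to 3 UMIs.

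Of the migration and guidance genes, none of 14 was called between ages in members, beside 7.64% of all genes higher and 2.55% lower. From members to barcodes with both Eomes and Neurod6, 8 of 16 were higher at E15.5 and 7 of 18 at E18.5, and none was lower. Over all genes, that step had 5.28% and 6.02% higher, and 3.52% and 5.31% lower. Robo2, a Slit receptor, was at 12.5 CPM in members and 136 in the others at E15.5, and at 25.2 and 56.7 CPM at E18.5. Of 6 measured immediate early genes, which dissociation can raise, Egr1 rose from 12.5 to 75.7 CPM in members and Fos from 19.6 to 84.7 CPM. In the others both also rose, 2.81-fold and 2.41-fold.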
